A study of Mus musculus with 4 samples.

Results

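Amino acid transporters were measured in cells differentiated from mouse embryonic stem (ES) cells and sorted by KSP, the kidney-specific cadherin encoded by Cdh16. The genes described here are those of the solute carrier families Slc1, Slc3, Slc6, Slc7, Slc36, Slc38 and Slc43, chosen by symbol alone and not by their values. A gene was included if it had a probe set assigned to it and to no other gene. This gave 58 genes with 118 probe sets, of 18193 genes with 34945 single-gene probe sets on the array. By family, 7 genes belonged to Slc1, 2 to Slc3, 18 to Slc6, 15 to Slc7, 4 to Slc36, 9 to Slc38 and 3 to Slc43.

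The cells came from CAG-GFP EB3, 1 mouse ES cell line described as expressing GFP ubiquitously from the CAG promoter. All 4 samples had been differentiated through embryoid bodies in Activin at 10 ng/mL and sorted on day 18 with an antibody against the extracellular part of KSP. The 2 KSP-positive samples held cells positive for KSP and GFP, and the 2 KSP-negative samples held cells positive for GFP without KSP, so that no group was unsorted or untreated. The methods name 2 independent experiments, but no source ties a replicate number to an experiment, so that the p-values measure the spread between these samples.

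Amino acids cross membranes through carriers that differ in the side chains they accept and in what drives them. Some carriers use the sodium gradient to concentrate amino acids in the cell, whereas others exchange one amino acid for another. In the Slc7 family, a light chain that does the transport is joined by a disulfide bond to a heavy chain of the Slc3 family, which brings it to the plasma membrane. In the kidney, the proximal tubule takes up filtered amino acids with apical carriers such as Slc6a19 and the pair of Slc3a1 and Slc7a9, and passes them to the blood with basolateral pairs of Slc3a2 with Slc7a7 or Slc7a8.

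Values are log2 of the array signal after each array was scaled to the same 75th percentile. Signals under 12.3, the 20th percentile of all values, were set to that floor, which is 3.62 on the log2 scale. A gene was tested where its brightest single-gene probe set had a mean log2 signal over 5.14, which left 12849 genes in all and 36 of the 58 transporter genes. Differences are KSP-positive minus KSP-negative, and a gene was called where its adjusted p from limma (Benjamini-Hochberg over the 12849 genes) was under 0.05. The signals of different probe sets cannot be set against each other, so that each gene is compared with itself between the fractions.

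The sorted fractions were first compared with marker genes. Cdh16, the gene of the sorted protein, had log2 signals of 5.66 and 5.03 in KSP-positive cells and 5.30 and 4.71 in KSP-negative cells, so that the fractions overlapped (difference 0.34, SE 0.57, adjusted p = 0.816). Of 15 macrophage and white blood cell genes tested, 13 rose in KSP-positive cells and 0 fell. The summed signal of all 17 such genes on the array was 12903 to 26365 in KSP-positive against 1886 to 2385 in KSP-negative arrays. Of 13 mesenchyme and matrix genes, 7 rose and 0 fell, with summed signals of 73822 to 102223 against 31673 to 48306. Of 12 pluripotent cell genes, 11 fell and 0 rose, with summed signals of 8003 to 8716 against 17396 to 30171. Of 12 epithelial genes, 7 fell and 0 rose, with summed signals of 8408 to 10640 against 23187 to 29783. Of 13 proximal tubule genes, 7 were bright enough to test and 1 fell (Hnf4a, a transcription factor of liver, gut and proximal tubule). The list was mixed, with 3 higher and 4 lower means among the 7, and 1 gene over 2-fold higher and 2 over 2-fold lower. The median difference was -0.48 over the 7 and 0.00 over all 13 without a filter. The summed signal of all 13 was 699 to 852 against 963 to 1306, and Slc5a12 was at the floor in all 4 arrays. Of 10 genes of the loop of Henle, distal tubule and collecting duct, 3 were tested, 0 rose and 0 fell, and Umod and Slc12a3 were at the floor in all arrays. Of 8 neuron, glia and neural progenitor genes tested, 1 fell (Stmn2, a microtubule protein of neurons) and all 8 had lower means (median -0.78). All 12 such genes on the array had summed signals of 617 to 795 against 1142 to 1627. Of 10 proliferation genes, 0 passed and 9 had lower means (median -0.39), with summed signals of 20508 to 21949 against 22625 to 34843. Of 8 endothelial, 8 cardiomyocyte and 3 erythroid genes tested, 0 passed. Several of these lists differ between the same fractions as the genes below, and their part in the results was not tested. In bulk RNA, fewer cells of a type and less RNA per cell cannot be told apart.

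The transporter genes that passed the test were 2 Slc7 genes, Slc7a3 and Slc7a7, and both fell in KSP-positive cells. This is 5.56% of the 36 genes tested, where 1.65% of all genes were called lower. None rose (0 of 36, where 1.84% of all genes were called higher), while 3 had a higher and 7 a lower mean at an unadjusted p under 0.05 (0 and 5 with the methods' t-test). The share of all genes at an unadjusted p under 0.05 was not counted, here or in the comparisons below, so that such counts have no background. Over 2-fold, 3 genes (8.33%) were higher and 7 (19.4%) lower, where 7.92% and 7.66% of all genes were. With the values as deposited, without scaling, this split was 1 higher and 9 lower, and the median over all genes tested was -0.12. The share of all genes over 2-fold was not counted with unscaled values. The arrays of the fractions did not overlap for 7 genes (19.4%) that were higher and 13 (36.1%) that were lower in KSP-positive cells, where 24.4% and 24.6% of all genes were. The differences ran from -2.62 to 1.23 with a median of -0.18, against -0.03 over all genes tested.

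Without KSP-negative replicate 2, neither call passed the threshold. Slc7a3 then had a difference of -1.94 (adjusted p = 0.0996) and Slc7a7 one of -2.21 (adjusted p = 0.0716), while the calls over all genes went from 236 higher and 212 lower to 72 and 52. Without KSP-negative replicate 1, 11 transporter genes were over 2-fold lower, while the median over all genes tested went from -0.03 to -0.14. The share of all genes over 2-fold was not counted in that setting. The number of arrays limits the precision of every value here.

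**Figure D1:**
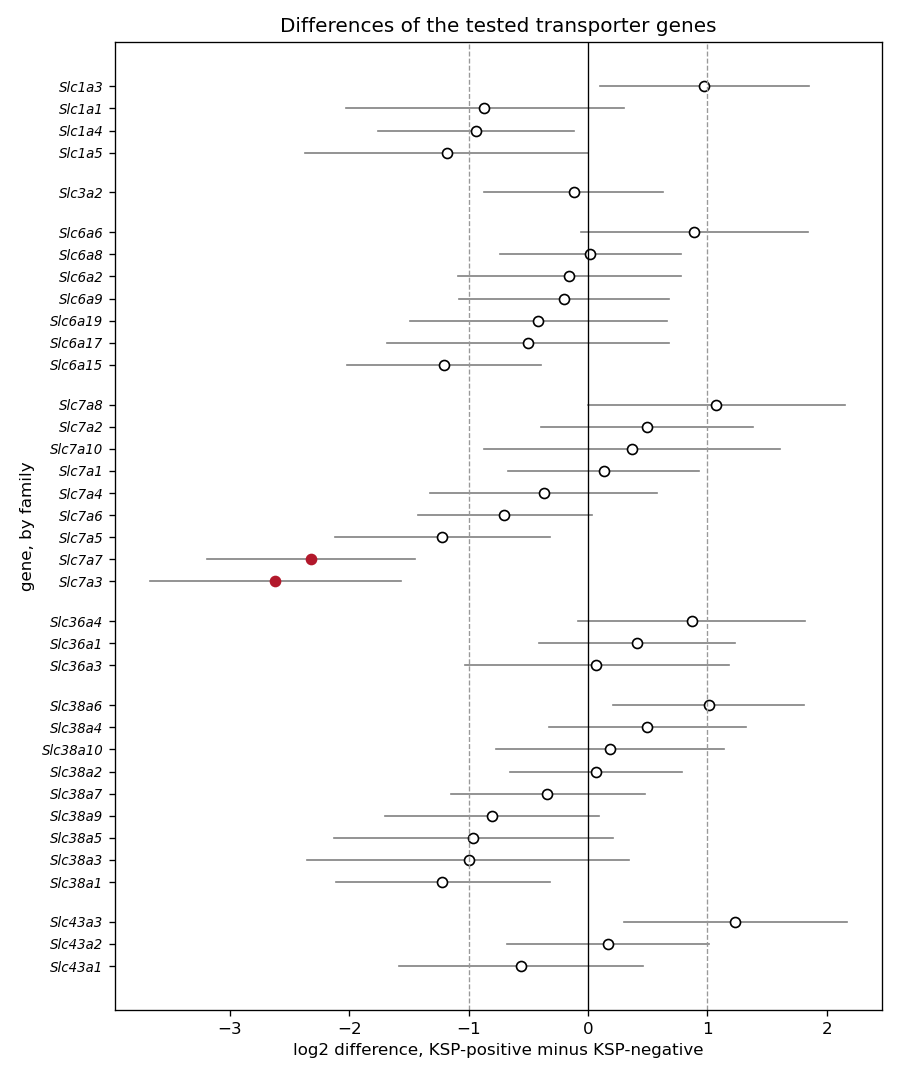
Log2 difference, KSP-positive minus KSP-negative, of the 36 transporter genes tested, grouped by family on the vertical axis. Points are the differences of the means of 2 arrays a fraction, lines are 95% confidence intervals from limma, filled points are the 2 genes with an adjusted p under 0.05, and dashed lines mark 2-fold. Slc7a3 and Slc7a7 lie farthest to the left, and 16 of the 36 points lie to the right of 0.

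Cationic amino acid transporters of the Slc7 family work without a heavy chain and carry arginine, lysine and ornithine into cells. Slc7a3 had log2 signals of 7.12 and 7.81 in KSP-positive cells and 9.40 and 10.78 in KSP-negative cells. The lower KSP-negative array was above both KSP-positive arrays, and the fall was 6.16-fold (difference -2.62, SE 0.48, 95% confidence interval -3.67 to -1.57, adjusted p = 0.0157 from limma). Its mean was 7.47 ± 0.49 (SD, n = 2) in KSP-positive and 10.09 ± 0.97 (SD, n = 2) in KSP-negative cells, so that the difference was larger than either spread. Slc7a3 has a single probe set.

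Of the other cationic carriers tested, 2 had higher means and 1 a lower mean, and 0 passed. Slc7a1, the cationic carrier of most dividing cells, had log2 signals of 11.61 and 11.02 against 10.89 and 11.48, which overlapped (difference 0.13, adjusted p = 0.900). Slc7a2, a cationic carrier known from liver and from activated macrophages, had 7.77 and 7.88 against 7.70 and 6.97 (difference 0.49, adjusted p = 0.575), without overlap. Slc7a4, a relative with no settled transport function, had a difference of -0.37 (adjusted p = 0.716), and Slc7a14, a lysosomal relative, was under the filter.

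The heavy chains set how much of their light chains reaches the plasma membrane. Slc3a2 had log2 signals of 10.02 and 10.42 in KSP-positive and 10.21 and 10.48 in KSP-negative cells. Its ranges overlapped, and the difference was -0.12 with a 95% confidence interval of -0.87 to 0.63 (adjusted p = 0.900). Slc3a1, the heavy chain of the apical cystine carrier of the proximal tubule, was under the filter with 4.73 and 4.86 against 4.99 and 4.11.

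Among the light chains, 5 of 10 were tested, of which 1 fell and 0 rose, with a median difference of -0.70. Of these 5, 2 had higher and 3 lower means. Over all 10 without a filter the median was 0.11, so that no direction can be given for the light chains. Slc7a7 pairs with Slc3a2 and lets arginine and lysine out of cells in exchange for neutral amino acids and sodium, in proximal tubule and small intestine and in macrophages. Its loss causes lysinuric protein intolerance. Slc7a7 had log2 signals of 6.99 and 7.84 in KSP-positive cells and 9.62 and 9.84 in KSP-negative cells, with a wide gap between the fractions. The fall was 4.99-fold (difference -2.32, SE 0.39, adjusted p = 0.0127 from limma), with means of 7.41 ± 0.60 (SD, n = 2) and 9.73 ± 0.15 (SD, n = 2). A second, dimmer probe set of Slc7a7 gave 4.28 and 4.53 against 6.93 and 6.09, a difference of -2.10.

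**Figure D2:**
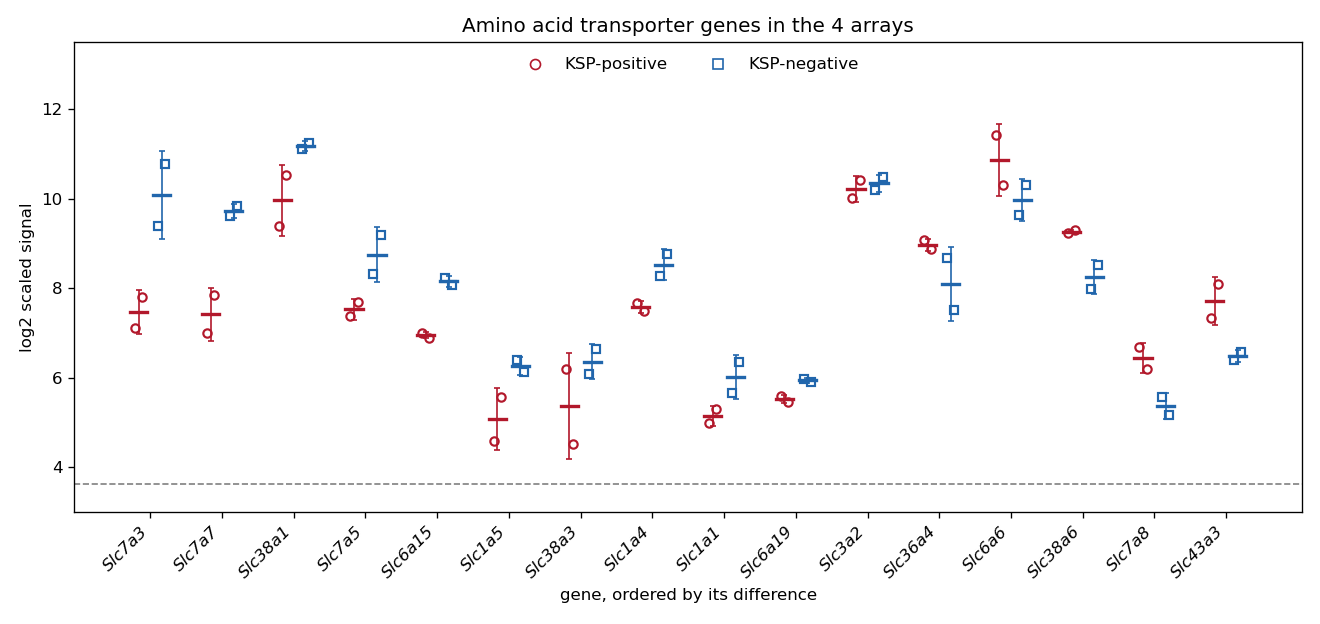
Log2 scaled signal of 16 transporter genes in the 4 arrays, ordered by their difference. Open points are arrays, short bars the means and lines the SD of 2 arrays a fraction, and the dashed line is the floor of 3.62. The KSP-positive points of Slc7a3 and Slc7a7 lie well under the KSP-negative points, and those of Slc3a2 overlap.

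The other light chains of Slc3a2 lay on both sides of 0. Slc7a5, the exchanger that brings leucine and other large neutral amino acids into growing cells, had 7.37 and 7.70 in KSP-positive against 8.32 and 9.19 in KSP-negative cells. The fractions did not overlap, and the difference of -1.22 (2.33-fold, SE 0.41) had an adjusted p of 0.140 from limma. Slc7a6, a close relative of Slc7a7, had 9.58 and 9.61 against 10.28 and 10.31, a small gap with little spread (difference -0.70, adjusted p = 0.301), and its second probe set gave -0.59. Slc7a8, the basolateral neutral amino acid exchanger of the proximal tubule, went the other way, with 6.68 and 6.20 against 5.58 and 5.17 (2.10-fold, difference 1.07, adjusted p = 0.283). Slc7a10, a carrier of small neutral amino acids in brain, had a difference of 0.37 (adjusted p = 0.793).

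Under the filter were Slc7a9, the apical partner of Slc3a1, with 5.13 and 3.62 against 5.87 and 5.04, and Slc7a11, the cystine-glutamate exchanger, with 5.13 and 3.62 against 4.68 and 3.62. In both genes KSP-positive replicate 2 was at the floor. Slc7a12 and Slc7a13 were under the filter too, and Slc7a15 was at the floor in all 4 arrays.

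The Slc1 family holds the glutamate carriers, which are driven by sodium, and a pair of neutral amino acid exchangers, Slc1a4 and Slc1a5. Of 7 genes, 4 were tested, 0 passed, and 3 of the 4 had lower means in KSP-positive cells, also with unscaled values and after quantile normalization. An unadjusted p under 0.05 was found for 1 gene with a higher and 2 with a lower mean (0 with the methods' t-test). The direction of the family depended on the filter. Over all 7 genes without a filter, 3 had higher and 4 lower means (median -0.33). With a filter at the 60th percentile, 1 was higher and 1 lower (median 0.02). Slc1a4, which carries alanine, serine and cysteine, had 7.68 and 7.49 against 8.28 and 8.77, without overlap (difference -0.94, adjusted p = 0.214). All 3 of its probe sets were lower, by -1.54 to -0.70. Slc1a5, the glutamine exchanger of dividing cells, had 4.59 and 5.56 against 6.40 and 6.12 (2.27-fold, difference -1.18, SE 0.54, adjusted p = 0.281), and its second probe set gave -0.45 with overlap. Slc1a1, the glutamate carrier of proximal tubule and neurons, had 4.98 and 5.31 against 5.66 and 6.36 (difference -0.87, adjusted p = 0.430).

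Slc1a3, the glutamate carrier of astrocytes, had higher means in KSP-positive cells. Its signals were 8.73 and 7.98 against 7.46 and 7.30, and the fractions did not overlap (difference 0.97, SE 0.39, adjusted p = 0.223). The other kept probe sets of Slc1a3 gave 0.44 and 0.15. Slc1a2, Slc1a6 and Slc1a7 were under the filter.

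The Slc38 family couples uptake of glutamine and other small neutral amino acids to sodium, and all 9 of its genes were bright enough to test. Of these, 0 passed (1 higher and 1 lower where p was under 0.05 before adjustment, 0 and 1 with the methods' t-test), 4 had higher and 5 lower means (3 and 6 without scaling, 2 and 7 with probe sets averaged), and the median difference was -0.34. This median was -0.18 and -0.16 without KSP-positive replicate 1 or 2, and 0.07 over the 7 genes left by a filter at the 60th percentile, so that no direction can be given for the family. Slc38a1, a glutamine carrier known from brain and placenta, had 9.40 and 10.53 in KSP-positive against 11.11 and 11.26 in KSP-negative cells. The fractions did not overlap (2.32-fold, difference -1.22, SE 0.40, adjusted p = 0.138), and its second probe set gave 8.04 and 8.27 against 9.18 and 8.90, a difference of -0.89. Without KSP-positive replicate 2, Slc38a1 had a difference of -1.78 with an adjusted p of 0.0247, and without KSP-positive replicate 1 one of -0.66.

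Slc38a3, the glutamine carrier of liver and of the basolateral side of the proximal tubule, had 6.20 and 4.52 against 6.08 and 6.64, which overlapped (difference -1.0, adjusted p = 0.430). Slc38a5, a relative of Slc38a3, had 4.81 and 4.82 against 5.64 and 5.91, a gap with little spread (difference -0.96, adjusted p = 0.383). Slc38a9, the arginine sensor on the lysosome, had a difference of -0.80 (adjusted p = 0.335), and 5 of its 6 kept probe sets were lower. Slc38a7, a lysosomal glutamine carrier, had a difference of -0.34 (adjusted p = 0.701).

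Slc38a2, the carrier that cells raise when amino acids are scarce, had 12.89 and 12.38 against 12.45 and 12.68, with overlap (difference 0.07, adjusted p = 0.943). Its other kept probe sets gave -0.33 with overlap and -1.0 without, so that its direction depends on the probe set. Slc38a4, a carrier known from liver and placenta, had 13.23 and 12.25 against 12.37 and 12.12 (difference 0.49, adjusted p = 0.543). Slc38a6, a less studied relative, had 9.24 and 9.30 against 7.99 and 8.53, without overlap (2.01-fold, difference 1.01, SE 0.36, adjusted p = 0.168). The second probe set of Slc38a6 gave -0.30 with overlap, so that its direction depends on the probe set. Slc38a10 had a difference of 0.18 (adjusted p = 0.876), and its 6 kept probe sets were divided equally, 3 higher and 3 lower.

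The Slc6 family carries amino acids, neurotransmitters and osmolytes with sodium and chloride. Of 18 genes, 7 were tested and 0 passed, with 1 lower and 0 higher at an unadjusted p under 0.05 (2 and 0 with the methods' t-test among the amino acid carriers). All 4 amino acid carriers tested had lower means in KSP-positive cells, with a median of -0.46, also under both other scalings. With either replicate 2 left out and with probe sets averaged, 3 of the 4 did, and the median was -0.74 to -0.29 with an array left out. Slc6a15, a carrier of branched-chain amino acids and proline known from neurons, had 7.0 and 6.90 against 8.24 and 8.07. The replicates lay close together and the fractions far apart (2.31-fold, difference -1.21, SE 0.37, adjusted p = 0.111).

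Slc6a19, the apical neutral amino acid carrier of proximal tubule and small intestine, lost in Hartnup disorder, had 5.59 and 5.46 against 5.98 and 5.90 (difference -0.42, adjusted p = 0.718). Cltrn, the protein that brings Slc6a19 to the surface of the proximal tubule, had 5.95 and 5.97 against 7.06 and 7.24, also without overlap (difference -1.19, adjusted p = 0.162). Slc6a18, a close relative in the late proximal tubule, was under the filter with 5.16 and 3.87 against 4.61 and 5.22. Slc6a17, a vesicular relative of Slc6a15, had a difference of -0.50 (adjusted p = 0.687), and its second probe set gave 0.98. Slc6a9, a glycine carrier, had a difference of -0.20 (adjusted p = 0.844).

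Among the neurotransmitter and osmolyte carriers, Slc6a6 takes up taurine. Its brightest probe set gave 11.44 and 10.31 in KSP-positive against 9.65 and 10.31 in KSP-negative cells, where replicate 2 of each fraction had the same value (difference 0.89, adjusted p = 0.311). Its other kept probe set gave 8.96 and 10.27 against 11.25 and 10.23, a difference of -1.12. The mean of all its kept probe sets differed by -0.11, so that no direction can be given for Slc6a6. Slc6a8, the creatine carrier, and Slc6a2, the noradrenaline carrier, had differences of 0.02 and -0.16.

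**Figure D3:**
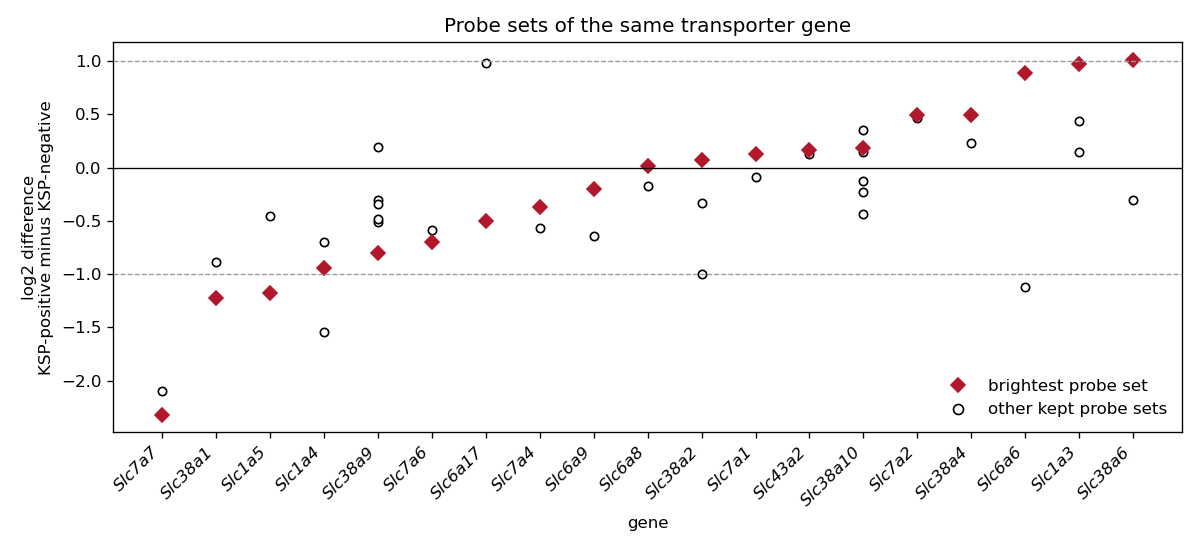
Log2 difference of every kept probe set of the 19 tested transporter genes that have several, ordered by the brightest probe set. Diamonds are the probe sets that stand for the gene, open circles the others, and dashed lines mark 2-fold. The probe sets of 11 genes share a direction and those of 8 genes do not, and Slc7a7 is lower by both.

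The proton-coupled carriers of the Slc36 family move small amino acids out of lysosomes and across the apical membrane. Of 4 genes, 3 were tested and 0 passed, with 0 at an unadjusted p under 0.05 by limma and by the methods' t-test. Slc36a4 had 9.07 and 8.88 against 8.68 and 7.52, without overlap (difference 0.87, adjusted p = 0.321). Slc36a1, the lysosomal member, had 7.87 and 7.83 against 7.31 and 7.58 (difference 0.41, adjusted p = 0.624), and Slc36a3 had a difference of 0.07. All 3 means were higher with scaling and 2 of 3 with the values as deposited. Slc36a2, a proline and glycine carrier of the proximal tubule, was under the filter with 4.47 and 4.04 against 5.12 and 4.76.

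The Slc43 family holds Slc43a1 and Slc43a2, which let large neutral amino acids pass without sodium, and Slc43a3, now known as a purine base carrier. Of its 3 genes, 3 were tested and 0 passed (1 at an unadjusted p under 0.05, 0 with the methods' t-test). Slc43a3 had the highest difference of the 36 transporter genes tested. Its signals were 7.34 and 8.10 against 6.39 and 6.58, without overlap (2.35-fold, difference 1.23, SE 0.42, adjusted p = 0.150). Slc43a1 and Slc43a2 had differences of -0.56 and 0.17, both with overlap.

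Of the 22 transporter genes under the filter, 16 had an array at the floor, and their log2 signals reached 6.35 at most. In 3 of them both arrays of one fraction were at the floor and both of the other above it. Slc6a21 had 5.62 and 4.16 in KSP-positive cells, with a mean 2.42-fold above the floor. Slc6a13, a GABA carrier of liver and kidney, had 5.19 and 3.81 in KSP-positive cells, with a mean 1.85-fold above the floor and replicate 2 close to it. Slc6a14, a carrier of neutral and cationic amino acids in epithelia, had 4.52 and 4.54 in KSP-negative cells, with a mean 1.89-fold above the floor. Its other probe set had 4.15 and 4.32 in KSP-positive cells and was at the floor in KSP-negative cells. Slc6a4, the serotonin carrier, had 3.62 and 4.56 against 6.35 and 5.37, with KSP-positive replicate 1 at the floor, which sets the size of its gap. None of these genes was tested. Of the named carriers of the proximal tubule, Slc7a7, Slc7a8, Slc6a19, Slc1a1 and Slc38a3 were tested, and only Slc7a7 passed.

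The promoters of the transporter genes were searched for 3 short motifs, because amino acid carriers are known targets of Atf4, the transcription factor of the amino acid response. Sequences were taken from RefSeq (GRCm38.p6) as windows of 300 bases around annotated starts, of which 62 windows matched 41 of the 58 genes. The Atf4 and C/EBP composite site TGATGNAA, on either strand, was in a window of 4 genes (9.76%), Slc7a7, Slc1a4, Slc7a11 and Slc6a21, where 4.51% of 27025 genes held it. By window, it was in 5 of the 62 (8.06%), where 3.97% of 32851 windows of this length held it. The E-box CACGTG, which reads the same on both strands, was in 9 genes (22.0%) and 9 windows (14.5%), where 8.09% of genes and 7.15% of windows held it. The octamer ATGCAAAT was in 2 genes (4.88%) and 2 windows (3.23%), where 1.97% of genes and 1.74% of windows held it, and in Slc7a11 it overlaps a composite match. The transporter genes had more windows a gene than all genes, so that the shares by window are the closer comparison. A match describes the letters of the window and was not tested as a bound site. Slc7a3 and Slc7a5 had no window.

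A window of Slc7a7, a called gene, and the window of Slc1a4 with a match, a gene lower by all 3 probe sets, are printed 5′ to 3′ on the gene's strand with the composite matches in capitals. The printed Slc7a7 window has matches that begin at positions -141 and -1 from its start, and the second of these lies at -243 from another annotated start of Slc7a7. For Slc1a4, 1 match lies on the other strand, with its leftmost base at -4.
Slc7a7, chr14:54417895-54418194, minus strand: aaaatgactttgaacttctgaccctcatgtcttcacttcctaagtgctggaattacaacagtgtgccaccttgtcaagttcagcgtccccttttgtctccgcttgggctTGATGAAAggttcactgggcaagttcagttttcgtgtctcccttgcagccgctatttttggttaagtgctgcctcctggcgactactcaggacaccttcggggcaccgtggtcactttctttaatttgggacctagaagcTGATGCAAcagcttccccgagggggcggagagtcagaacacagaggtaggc
Slc1a4, chr11:20332664-20332963, minus strand: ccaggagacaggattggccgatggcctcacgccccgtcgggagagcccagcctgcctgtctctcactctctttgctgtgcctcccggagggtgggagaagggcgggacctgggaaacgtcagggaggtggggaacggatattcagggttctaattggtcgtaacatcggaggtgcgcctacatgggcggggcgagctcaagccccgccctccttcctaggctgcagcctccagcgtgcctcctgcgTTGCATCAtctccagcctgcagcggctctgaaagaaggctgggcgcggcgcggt

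The pathways that use or sense amino acids were compared next. Lists of genes were taken for each, and the called genes of each are read against the 1.84% of all genes called higher and 1.65% called lower. In the amino acid response, which Atf4 drives, 1 of 20 genes tested fell and 0 rose. Their median difference of 0.24 was -0.27 to 0.31 with an array left out (below 0 without KSP-positive replicate 1 at -0.04 and without KSP-negative replicate 1 at -0.27) and -0.01 with probe sets averaged, so that it has no settled direction. The gene that fell was Asns, asparagine synthetase, with 8.85 and 10.18 in KSP-positive against 11.34 and 11.68 in KSP-negative cells (3.99-fold, difference -2.0, SE 0.44, adjusted p = 0.0346 from limma). Asns lost the call without KSP-positive replicate 1 (difference -1.33, adjusted p = 0.193) and without KSP-negative replicate 2 (difference -1.82, adjusted p = 0.154). Trib3, a pseudokinase that Atf4 induces, had 6.57 and 7.24 against 8.07 and 9.19 (difference -1.72, adjusted p = 0.0719). Stc2, a secreted glycoprotein, had a difference of -1.77 (adjusted p = 0.0747), and Ddit4, an inhibitor of mTORC1, one of -1.54 (adjusted p = 0.107). Of the 20 genes, 11 had higher means, and 2 were over 2-fold higher and 4 over 2-fold lower. Nupr1 had 8.08 and 8.87 against 6.29 and 7.52, without overlap (difference 1.57, adjusted p = 0.111 from limma). Eif2ak4 had a difference of 1.26, also without overlap (adjusted p = 0.126 from limma). Atf4 itself had 12.76 and 11.73 against 11.48 and 12.29, with overlap (difference 0.36, adjusted p = 0.716).

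In serine, glycine, proline and one-carbon synthesis, 2 of 14 genes fell and 0 rose, and the median difference was -1.24 (-0.74 without KSP-negative replicate 2). The means of 13 of the 14 genes were lower, also with both other scalings, and 8 were over 2-fold lower. Gldc, the decarboxylase of the glycine cleavage system, had 7.07 and 6.90 against 9.42 and 10.05, far apart (6.74-fold, difference -2.75, SE 0.38, adjusted p = 0.00534 from limma). Mthfd1, an enzyme of folate metabolism, had means of 9.02 ± 0.69 (SD, n = 2) against 11.35 ± 0.92 (SD, n = 2), without overlap (5.0-fold, difference -2.32, adjusted p = 0.0271), and without KSP-negative replicate 2 its difference was -1.67 with an adjusted p of 0.150. Shmt1, which passes a carbon from serine to folate, had a difference of -1.85 (adjusted p = 0.0619), and Cth, which makes cysteine, one of -1.88 (adjusted p = 0.0779).

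Of the cytosolic aminoacyl-tRNA synthetases, which load tRNAs with amino acids, 0 of 19 passed the test with limma (4 lower and 0 higher at an unadjusted p under 0.05, and 2 and 0 with the methods' t-test). All 19 had lower means in KSP-positive cells, with a range of -1.16 to -0.13 and a median of -0.56. The fractions did not overlap for 13, where 24.6% of all genes were lower without overlap. The proliferation and neural genes given above had lower means in 9 of 10 and 8 of 8 genes. The pluripotent and epithelial genes did in 11 of 12 and 12 of 12, with medians of -3.40 and -2.12. These lists moved with the synthetases, and their part in this was not tested. All 19 were lower too without scaling and after quantile normalization, and 16 of 19 without KSP-negative replicate 2. The smallest p was that of Nars, which loads asparagine, with 10.97 and 11.03 against 11.67 and 12.13 (difference -0.90, adjusted p = 0.177).

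**Figure D4:**
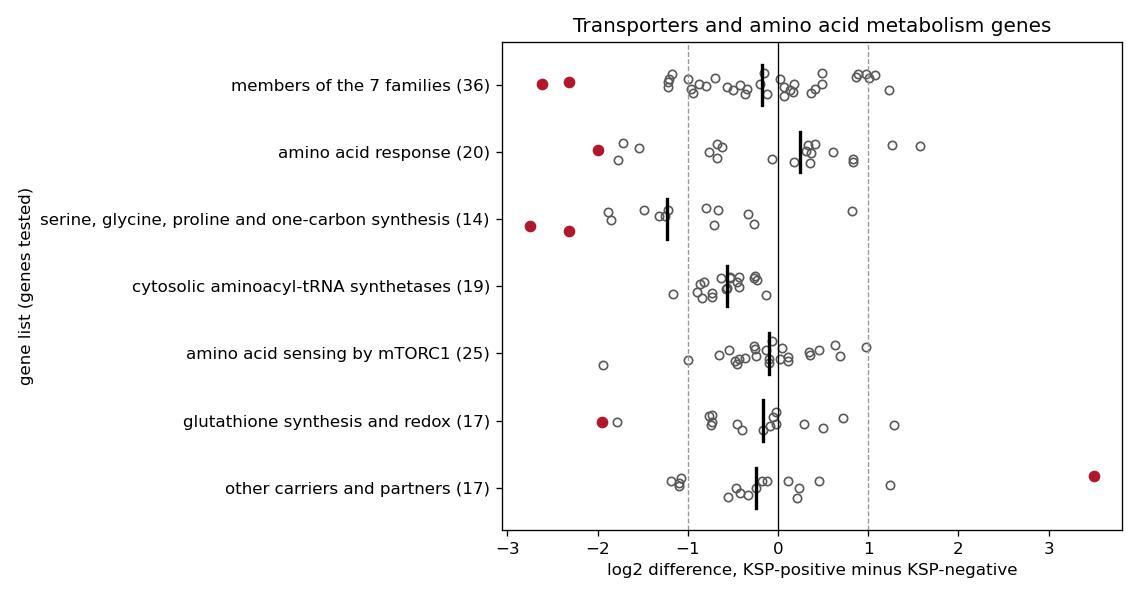
Log2 difference of each gene tested in the transporter families and in 6 lists of amino acid metabolism, with the number tested in brackets. Each point is a gene, filled where its adjusted p was under 0.05, bars are medians and dashed lines mark 2-fold. All 19 synthetases and 13 of 14 genes of serine, glycine, proline and one-carbon synthesis lie to the left of 0, and Slc15a3 lies far to the right.

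In amino acid sensing by mTORC1, the kinase complex that couples amino acid supply to growth, 0 of 25 genes passed (1 higher and 1 lower where p was under 0.05 before adjustment, 0 and 0 with the methods' t-test), and the median difference was -0.10 (-0.30 without KSP-negative replicate 1, -0.21 without KSP-positive replicate 2 or with probe sets averaged, -0.19 without scaling). Rraga, a GTPase that brings mTORC1 to the lysosome, had 7.14 and 9.26 against 10.50 and 9.77, with a wide spread in KSP-positive cells (difference -1.94, SE 0.59, adjusted p = 0.107). Tsc2, an inhibitor of the pathway, had a difference of 0.97 (adjusted p = 0.233). In glutathione synthesis and redox, 1 of 17 genes fell and 0 rose. This was Gsr, glutathione reductase, with 6.12 and 7.47 against 8.67 and 8.81 (3.86-fold, difference -1.95, adjusted p = 0.0479), and with quantile normalization its adjusted p was 0.0685. Without KSP-positive replicate 1 its difference was -1.27 (adjusted p = 0.266), without KSP-negative replicate 1 the adjusted p was 0.0836 and without KSP-negative replicate 2 it was 0.216. Ggct, which breaks down glutamyl amino acids, had a difference of -1.78 (adjusted p = 0.0812).

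Among 17 amino acid and peptide carriers of other families and their partners, 1 rose and 0 fell. Slc15a3, a lysosomal carrier of histidine and small peptides known from macrophages and dendritic cells, had 9.20 and 7.57 in KSP-positive against 4.70 and 5.07 in KSP-negative cells. The rise was 11.3-fold (difference 3.50, SE 0.55, adjusted p = 0.00862 from limma), the opposite direction to the called transporter genes. The macrophage and white blood cell genes listed above, 13 of 15 of which rose, moved with Slc15a3, and their part in it was not tested. Slc25a12, the mitochondrial aspartate-glutamate carrier, had 9.88 and 9.84 against 8.44 and 8.79 (difference 1.24, adjusted p = 0.0835), while its relative Slc25a13 had 7.72 and 7.94 against 8.75 and 9.06 (difference -1.07, adjusted p = 0.139). The ornithine carrier Slc25a15 had a difference of -1.10 (adjusted p = 0.116).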

How the data were processed

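Gene expression was measured with Affymetrix mouse genome arrays in 2 KSP-positive and 2 KSP-negative samples. RNA was purified with the RNeasy kit and labelled with biotin in 2 cycles. What the authors deposited is 1 linear signal intensity for each probe set and array, and the submitters' processing notes name MAS5. Arrays were scaled to a mean 75th percentile of 281 (factors 0.874 to 1.24), and 16.8% to 22.9% of probe sets were raised to the floor. Log2 signals of replicates correlated with r = 0.945 in each fraction, and r was 0.856 to 0.921 between fractions. The 3′ to 5′ signal ratio of actin, which rises as RNA degrades, was 2.92 and 1.80 in KSP-positive and 1.79 and 3.55 in KSP-negative replicates 1 and 2. Besides 64 controls, 932 probe sets of several genes and 9160 without a listed gene were left out, and 204 probe sets kept an older symbol. The brightest kept probe set stood for its gene. Other series' columns numbered 0.

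The difference of KSP-positive and KSP-negative means was fitted in R 4.3.3 with limma 3.58.1 (eBayes, trend on intensity), adjusted by the Benjamini-Hochberg procedure over the genes tested, and tested on simulated data. With 2 arrays a fraction, no exact permutation test can pass 0.05, and none was used. The replicate numbers were not used as pairs, since no source ties them. Named were genes called, genes over 2-fold without overlap, the smallest p of each role, carriers of the proximal tubule, genes with one whole fraction at the floor and the smallest p of each list. Other transporter genes named with values, and the genes Atf4, Nupr1, Eif2ak4, Tsc2, Cltrn, Hnf4a and Slc5a12, were added with their values known. Alternatives were other scalings, floors, filters, probe set rules and variance models, the replicate block, the methods' t-test and leaving out each array, where a fraction with 1 array borrows the spread of the other. The genes and lists were chosen with earlier results of these data known. Figures were drawn with matplotlib 3.10.9.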

Additional observations from a re-analysis of the deposited data

How the results depend on the processing

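Of the transporter genes, 2 were called lower. None was called lower without a filter or with the methods' t-test after adjustment (5 at its own threshold, unadjusted), and 0 to 3 were when each array was left out. Without a filter and with the methods' t-test, 0 genes of all were called in either direction. No setting called a transporter gene higher. Over 2-fold higher were 3 genes, 1 with the values as deposited, 5 without a filter and 2 to 4 with an array left out. Over 2-fold lower were 7, and 5 to 11 with an array left out, where the median over all genes was -0.14 to 0.07. The share of all genes over 2-fold was counted in the main setting only. The median difference of -0.18 was -0.27 with the values as deposited (all genes -0.12), -0.27 with a floor at the 40th percentile, -0.05 with a filter at the 60th percentile, -0.30 with every probe set alone, and -0.31 to 0.01 with an array left out. Of the 36 genes, 3 turned sign with the values as deposited, 5 with probe sets averaged and 3 to 6 with an array left out. Those that turned had a difference of 0.89 or less in size. Among the genes named by rule, the sign turned for Slc3a2 (-0.12, and -0.32 to 0.08 with an array left out, above 0 also at 0.01 when KSP-negative replicate 2 was left out) and for Slc6a6 (-0.11 as the mean of its probe sets). Without a filter and with the methods' t-test, where 0 genes of all passed, Asns, Gldc, Mthfd1, Gsr and Slc15a3 were not called either. With every probe set alone, the adjusted p was 0.0679 for Asns, 0.0585 for Mthfd1 and 0.0906 for Gsr, and without the intensity trend 0.0743, 0.0606 and 0.0787. With probe sets averaged per gene it was 0.0643 for Mthfd1 and 0.0703 for Gsr, and with the higher floor 0.0553 for Gsr. The causes of these moves were not tested.

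With the replicate block, 4 transporter genes were called lower. Slc38a1 (adjusted p = 0.0386) and Slc7a5 (adjusted p = 0.0397) joined Slc7a3 and Slc7a7, serine, glycine, proline and one-carbon synthesis had 7 genes called lower and the amino acid response 4, and all genes gave 571 higher and 560 lower. The deviations of same-numbered arrays correlated with r = 0.17, over 2 pairs only, which does not settle whether the numbers pair the samples. Signals near the floor limit what can be read for the 22 genes not tested.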
